A study of Mus musculus with 20 samples.

Results

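The expression of 10 cyclic nucleotide phosphodiesterase genes, of 32285 genes measured, was followed across the cell classes of the mouse hippocampus by single-nucleus RNA sequencing. The members are Pde4a, Pde4b, Pde4d, Pde1a, Pde1b, Pde1c, Pde2a, Pde7b, Pde8b and Pde10a. They were chosen from these data, because Pde4b was low after ketamine in CA1 nuclei of both genotypes. The comparison of ketamine with wakefulness in CA1 is therefore given as a description without a test, for Pde4b and for the other members.

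The 20 mice were males aged 4.5 to 5.5 months, either APP/PS1, which carry the APPSwe and PS1ΔE9 transgenes, or their WT littermates. They stayed awake (Wake), or were kept for 3 h under isoflurane (Isofluran, induced at 5% and held at 1.5%) or under ketamine (150 mg/kg) given with xylazine (12 mg/kg) (Ketamine). There were 6 WT Wake, 3 APP/PS1 Wake, 3 WT Isofluran, 4 APP/PS1 Isofluran, 2 WT Ketamine and 2 APP/PS1 Ketamine mice, each with a library of its own. The series text counts 5 WT and 4 APP/PS1 mice awake and 4 WT and 3 APP/PS1 mice under isoflurane, and the labels of the single samples were used here. Every ketamine mouse also received xylazine, so the 2 agents cannot be told apart.

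Phosphodiesterases end cyclic nucleotide signals by hydrolysing cAMP or cGMP, the second messengers made by adenylyl and guanylyl cyclases and read by protein kinase A, protein kinase G and the Epac exchange factors. Pde4 enzymes, the targets of rolipram and roflumilast, act on cAMP alone, as do Pde7 and Pde8 enzymes. Pde1 enzymes need calcium and calmodulin, Pde2a is stimulated by cGMP, and Pde10a, which hydrolyses both nucleotides, is best known from the medium spiny neurons of the striatum.

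Phosphorylated CREB, which carries cAMP signals to the genome, binds the letters TGACGTCA and the shorter TGACG or CGTCA, so the start sites of the members were searched for these letters on both strands. All 10 members had start sites in RefSeq (GRCm38.p6), 31 in all, each with a window from 250 bases before to 50 bases after the start. The windows of Pde4b, Pde4d, Pde1c, Pde7b and Pde10a leave out the 5′ end of the gene span, and some windows of Pde2a and Pde8b overlap. The search therefore does not cover every start of the members. None of the 31 windows held TGACGTCA, which stood in 1.79% of the 32851 windows of all genes. The shorter letters, which are also part of the longer motif, stood in 5 of the 31 windows (16.1%) and in 20.8% of all windows. One of these windows belongs to Pde4b, and it is printed because the choice of the members rests on this gene. It lies at chr4:102421305-102421604 on the plus strand, inside the Pde4b gene, which spans chr4:102087543-102607259 in GRCm38, and the capitals mark CGTCA.
Pde4b: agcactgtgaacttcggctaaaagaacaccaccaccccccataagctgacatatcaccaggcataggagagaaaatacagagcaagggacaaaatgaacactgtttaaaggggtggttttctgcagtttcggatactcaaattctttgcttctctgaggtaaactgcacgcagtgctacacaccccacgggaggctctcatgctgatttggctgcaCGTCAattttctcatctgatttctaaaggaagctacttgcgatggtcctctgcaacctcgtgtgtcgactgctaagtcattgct
The counts are from 3′ ends and do not tell the start sites of a gene apart, so no value below is tied to a window.

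The libraries held 160777 nuclei and between 9243992 and 25394891 UMIs (unique molecular identifiers, counted RNA molecules) per mouse, with a median of 18289829. Nuclei were clustered, and clusters were named by marker genes into 9 tested classes with 123360 nuclei (76.7%), among them 16987 CA1-like nuclei. A further 33906 nuclei (21.1%) lay in unnamed clusters or were marked as doublets. Levels are UMIs per 1000000 UMIs (CPM) of the summed nuclei of a class in a mouse, scaled by TMM, so that a level is a share of the RNA of that class. Mice 1 to 4 had a mitochondrial share of 0.939% to 1.78% against 0.0353% to 0.336% in the other mice, and in several classes they fell into clusters of their own. In CA1, 1 cluster held 97.0% of their CA1-like nuclei and another held 98.9% of those of the other mice, whereas 1 cluster held 99.4% and 99.3% of the oligodendrocyte precursor-like nuclei. All ketamine mice have numbers 25 to 28, and only mouse 29, WT Wake, is a mouse outside the ketamine groups in that run of numbers. The study's methods state that tissue was handled in batches of 4, with the WT and APP/PS1 groups awake and under isoflurane in each. They name no ketamine group there, and the labels do not say which mice shared a batch. The runs 1 to 4 and 14 to 17 hold 1 mouse of each awake and isoflurane group. Ketamine and the last run cannot be told apart except through mouse 29.

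Pde4b encodes the cAMP-specific phosphodiesterase of the Pde4 family that is best known from inflammatory cells. In GRCm38 the gene (ENSMUSG00000028525) has the coordinates given above. In awake mice its level was highest in oligodendrocyte-like nuclei, at 9231 ± 1233 CPM (SD, n = 9), followed by oligodendrocyte precursor-like nuclei at 1721 ± 200.3 CPM. Microglia-like nuclei (528 ± 347 CPM, n = 8), CA3-like nuclei (435 ± 71.2 CPM) and astrocyte-like nuclei (432 ± 44.7 CPM) followed, and neighbours among these 3 classes did not differ beyond the larger SD. CA1-like (258 ± 32.2 CPM) and interneuron-like nuclei (235 ± 50.9 CPM) were alike within their spread, above fibroblast-like nuclei at 133 ± 38.3 CPM (n = 7). Granule cells of the dentate gyrus (DG) had the lowest level, 17.8 ± 6.94 CPM.

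Oligodendrocyte marker RNA was also counted in neurons, and its 8 markers were all detected in the CA1-like and DG granule-like sums. The summed marker level in awake mice was 139 to 453 CPM in CA1-like and 383 to 950 CPM in DG granule-like nuclei. The median was 219 CPM in CA1-like and 536 CPM in DG granule-like nuclei. Pde4b in the same DG granule-like sums was 12.3 to 31.4 CPM. The part of this marker RNA in the Pde4b level of CA1-like nuclei was not tested.

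**Figure D1:**
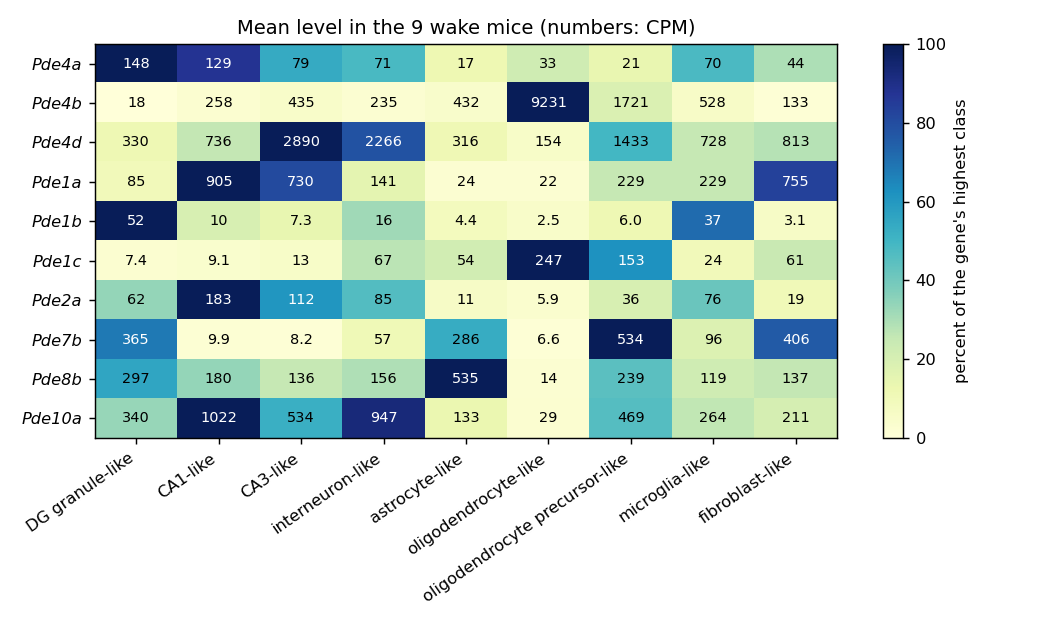
Mean level of each of the 10 members (rows) in each of the 9 cell classes (columns) in awake mice, with the mean in CPM printed in each cell and the colour giving it as a percent of the level in the highest class of that gene. Pde4b reached 9231 CPM in oligodendrocyte-like nuclei and 17.8 CPM in DG granule-like nuclei, and Pde1c was the other member with its highest level in oligodendrocyte-like nuclei.

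Among the other cAMP-specific Pde4 genes, Pde4d (chr13:108449948-109953461, plus strand) was highest in CA3-like nuclei (2890 ± 424 CPM), then in interneuron-like nuclei (2266 ± 337 CPM) and oligodendrocyte precursor-like nuclei (1433 ± 187 CPM), and lowest in oligodendrocyte-like nuclei at 154 ± 97.0 CPM. Pde4a (chr9:21165714-21213248, plus strand) was highest in DG granule-like nuclei (148 ± 13.3 CPM), which did not differ beyond the SD from CA1-like nuclei (129 ± 19.6 CPM), and lowest in astrocyte-like nuclei (17.3 ± 5.32 CPM). The 3 Pde4 genes thus had their highest levels in 3 different classes.

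The calcium-dependent Pde1 genes also differed in their places. Pde1a (chr2:79834453-80129458, minus strand) was highest in CA1-like nuclei (905 ± 109 CPM), within the spread of fibroblast-like nuclei (755 ± 249 CPM, n = 7), followed by CA3-like nuclei at 730.2 ± 168 CPM, and was lowest at 21.8 ± 20.0 CPM in oligodendrocyte-like nuclei. Pde1b (chr15:103503034-103530052, plus strand) was highest in DG granule-like nuclei at 51.7 ± 8.84 CPM and next in microglia-like nuclei at 37.2 ± 12.8 CPM. Pde1c (chr6:56069804-56569103, minus strand) was highest in oligodendrocyte-like (247 ± 53.7 CPM) and oligodendrocyte precursor-like nuclei (153 ± 29.8 CPM), and lowest in DG granule-like nuclei at 7.42 ± 2.50 CPM.

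Pde2a, the cGMP-stimulated enzyme (chr7:101421691-101512827, plus strand), was highest in CA1-like nuclei (183 ± 16.4 CPM), then in CA3-like nuclei (112 ± 13.4 CPM), and lowest in oligodendrocyte-like nuclei (5.92 ± 3.77 CPM). The cAMP-specific Pde7b (chr10:20398004-20725078, minus strand) was highest in oligodendrocyte precursor-like nuclei (534 ± 73.1 CPM), within the spread of fibroblast-like nuclei (406 ± 207 CPM, n = 7). DG granule-like (365 ± 70.6 CPM) and astrocyte-like nuclei (286 ± 73.4 CPM) followed, and Pde7b stood at 9.95 ± 4.40 CPM in CA1-like nuclei. The cAMP-specific Pde8b (chr13:95024454-95250336, minus strand) was highest in astrocyte-like nuclei (535 ± 97.9 CPM), ahead of DG granule-like nuclei (297 ± 19.7 CPM). Pde10a (chr17:8525372-8986648, plus strand) was highest in CA1-like nuclei (1022 ± 87.7 CPM), within the spread of interneuron-like nuclei (947 ± 159 CPM), and lower in astrocyte-like (133 ± 108 CPM) and oligodendrocyte-like nuclei (28.6 ± 12.1 CPM). Oligodendrocyte-like nuclei had the lowest level of 7 of the 10 members, and the highest of Pde4b and Pde1c.

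In CA1-like nuclei, the class that chose the members, Pde4b stood in awake WT mice between 232 and 259 CPM with a median of 244 CPM (n = 6). The awake APP/PS1 mice had 252 CPM (mouse 2), 339 CPM (mouse 10) and 269 CPM (mouse 17). After ketamine it was 84.2 CPM (mouse 27) and 119 CPM (mouse 28) in WT mice and 95.03 CPM (mouse 25) and 92.8 CPM (mouse 26) in APP/PS1 mice. All 4 ketamine mice lay below all 9 awake mice, with a gap from 119 to 232 CPM, and the genotypes overlapped within each treatment.

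The ketamine values of Pde4b in CA1-like nuclei rested on 538 UMIs in 4 mice. The log2 fold change against the awake mice was -1.44, with -1.27 in WT and -1.61 in APP/PS1 mice, and it was -1.36 against mouse 29 alone, which had 250.4 CPM. These values chose the members and are given without a test. Oligodendrocyte marker RNA in the same CA1-like sums was 92 to 186 CPM after ketamine, and markers of CA1 itself summed to 1639 to 2928 CPM against 2042 to 3183 CPM in awake mice. Markers of subiculum and cortex summed to 81.4 to 192 CPM against 49.6 to 145 CPM. The part of these markers in the Pde4b level was not tested.

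**Figure D2:**
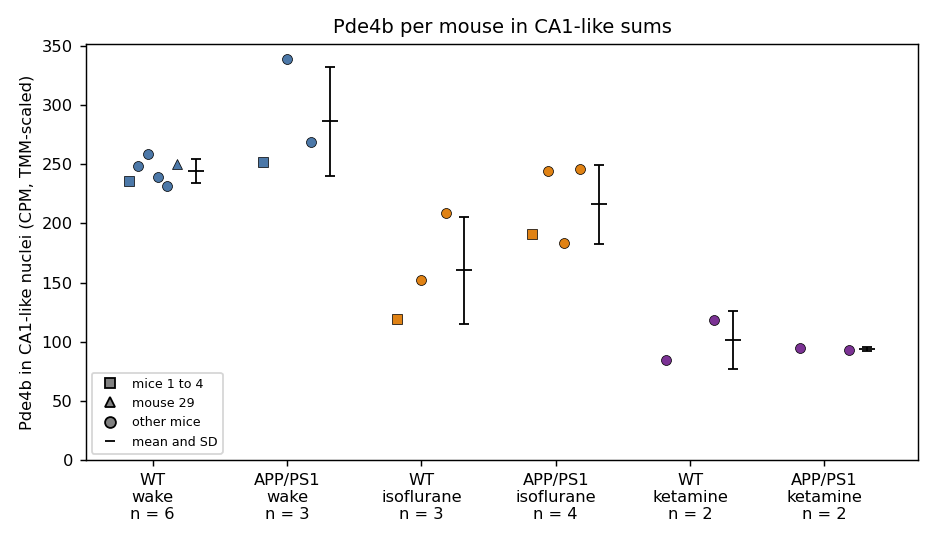
Pde4b level in CA1-like nuclei (CPM, linear axis from 0) in each of the 20 mice by group, with points for mice (squares for mice 1 to 4, a triangle for mouse 29) and bars for the mean with SD beside each group. The 4 ketamine mice lie between 84.2 and 119 CPM and the 9 awake mice between 232 and 339 CPM, while the 7 isoflurane mice spread from 119 to 246 CPM.

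Other members in CA1-like nuclei after ketamine lay on either side of their awake levels. Pde2a was 271, 243, 278 and 208 CPM in mice 25 to 28 and 154 to 206 CPM in awake mice (log2 fold change 0.46). Pde8b was 212, 224, 273 and 206 CPM against 152 to 204 CPM (0.35). Both were above the highest awake mouse in every ketamine mouse. Apart from Pde4b, which led to the choice, these were 2 of 9 members whose ketamine and awake values did not overlap, and of all genes tested in the class 6.12% did not overlap. Pde4d (0.44) and Pde1b (0.55) had higher and Pde10a (-0.44), Pde1a (-0.20) and Pde4a (-0.12) lower means in overlapping groups. Pde1c (-1.49) and Pde7b (-1.26) rested on 17 and 22 UMIs in the 4 ketamine mice together. Against mouse 29 alone Pde1c (0.05), Pde1b (-0.01) and Pde4a (0.13) had the opposite sign. The median log2 fold change of the 10 members was -0.16 and that of all genes tested in the class -0.04. The members' median includes the Pde4b value that chose them, and nothing is read from it.

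The genes whose level in CA1-like nuclei followed Pde4b most closely over the 20 mice were Osbpl8, a lipid transfer protein gene (r = 0.94), 1700025G04Rik (r = 0.94), Trps1, a zinc finger repressor gene (r = 0.93), Ptpn2, a tyrosine phosphatase gene (r = 0.92), and Lin7a, a scaffold protein gene (r = 0.92). The r is Pearson's over log2 CPM, and the mice share their treatment groups, depth and the choice of Pde4b. Osbpl8, for one, had a mean of 146 ± 19.4 CPM in awake, 114 ± 27.6 CPM in isoflurane and 62.2 ± 8.67 CPM in ketamine mice. Without the ketamine mice (n = 16) the r of these 5 genes was 0.83, 0.82, 0.82, 0.73 and 0.81. The genes were picked by their r over all 20 mice, which include these 16, so these values are no separate check. Among the members, r with Pde4b ran from 0.67 for Pde7b to -0.73 for Pde2a.

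Isoflurane was compared with wakefulness over both genotypes by edgeR's quasi-likelihood test, with the p adjusted over all genes of a class by Benjamini and Hochberg and called at 0.05. Of the 90 pairs of a member and a class, 83 had enough counts to be tested, and 6 were called, 1 higher and 5 lower, by edgeR. DESeq2 also gave 6 calls, which included the 5 lower pairs but not the higher one. That is 7.23% of the members' pairs beside 3.36% over all genes and classes (3343 of 99404, of which 2042 were higher and 1301 lower). The members' calls include those of Pde4b, which chose the members by its level against these same awake mice. The members' share is therefore no test of them as a set. The share of all genes called was 2.57% in DG granule-like, 5.31% in CA1-like, 1.9% in CA3-like, 2.49% in interneuron-like, 7.56% in astrocyte-like, 6.38% in oligodendrocyte-like, 0.707% in oligodendrocyte precursor-like, 0.0133% in microglia-like and 0% in fibroblast-like nuclei. The 5 lower pairs were Pde4b in CA1-like, oligodendrocyte-like and interneuron-like nuclei, Pde10a in interneuron-like nuclei and Pde7b in DG granule-like nuclei, and the higher pair was Pde2a in oligodendrocyte-like nuclei.

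In CA1-like nuclei Pde4b was 119 CPM (mouse 3), 152 CPM (mouse 16) and 209 CPM (mouse 18) in WT Isofluran mice. In APP/PS1 Isofluran mice it was 191 CPM (mouse 4), 245 CPM (mouse 11), 183 CPM (mouse 15) and 246 CPM (mouse 20). The level fell by 0.51 on the log2 scale (SE 0.12, adjusted p = 0.0160, edgeR), with 5 of 7 isoflurane mice below every awake mouse. Within the 4 runs of mouse numbers that hold both treatments the difference was lower in each, from -0.65 to -0.03. The runs hold the same mice as the fit, and Pde4a in CA1-like nuclei, which was not called, was also lower in each. The log2 fold change of Pde4b stayed between -0.62 and -0.42 with 1 mouse left out and between -0.53 and -0.41 over the other settings. The call was lost without mouse 10, the highest awake mouse (adjusted p = 0.0522), without mice 1 to 4 (adjusted p = 0.0714) and with nuclei classed one by one by a marker gate in place of clusters (adjusted p = 0.145, edgeR). The marker gate named fewer nuclei than the clusters in each tested class. It gave 5579 CA1-like nuclei against 16987, 4832 DG granule-like against 40206, 2526 interneuron-like against 7551 and 5344 oligodendrocyte-like against 16331. The part of these lower numbers in lost calls was not tested. The isoflurane and ketamine comparisons share the awake mice.

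In oligodendrocyte-like nuclei, the class with the highest level, Pde4b ranged in awake mice from 7215 to 11085 CPM with a median of 9756 CPM. Isoflurane mice ranged from 4244 to 8446 CPM with a median of 5582 CPM. Of the 7 isoflurane mice, all but mouse 11, the highest, were below the awake range. The level fell by 0.69 on the log2 scale (SE 0.13, adjusted p = 0.00213, edgeR), and was lower in 4 of 4 runs. The oligodendrocyte marker sum was 12330 to 17365 CPM under isoflurane and 13943 to 18687 CPM in wakefulness. Of the DG granule markers in the same sums, Dock10 had a median of 2533 CPM under isoflurane and 2599 CPM in wakefulness, and the others summed to 316 to 567.8 CPM and 669 to 809.8 CPM, without overlap. Of the CA1 markers, Pex5l was higher under isoflurane, at 4531 to 6209 CPM against 2009 to 3721 CPM, and the others had medians of 25.9 and 25.4 CPM. The part of these markers in the Pde4b level was not tested. With doublets kept the difference was -0.60 and the call was lost (adjusted p = 0.118), and the awake mean was 5904 CPM in place of 9231 CPM.

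In interneuron-like nuclei Pde4b ranged from 160 to 319 CPM with a median of 219.9 CPM in awake mice, and from 74.9 to 232 CPM with a median of 142 CPM under isoflurane. Mice 3 and 4 were the lowest of the isoflurane mice. The groups overlapped, and the level fell by 0.82 on the log2 scale (SE 0.21, adjusted p = 0.0380, edgeR). Markers of the class were lower as well. The 12 interneuron markers summed to 6602 to 10985 CPM in awake and 4544 to 7796 CPM in isoflurane mice, and their part in this difference was not tested. With the marker gate the difference was -0.39 and the call was lost (adjusted p = 0.613, edgeR). It was also lost with clusters drawn at a higher resolution, called finer clusters here (adjusted p = 0.0529) and without mouse 3, 10, 12, 14, 15, 17, 18, 20 or 29 (adjusted p up to 0.125, edgeR). Pde4b in astrocyte-like nuclei had a log2 fold change of -0.45 (adjusted p = 0.0678) and in microglia-like nuclei of -0.88 (adjusted p = 0.862), neither of them called by edgeR.

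**Figure D3:**
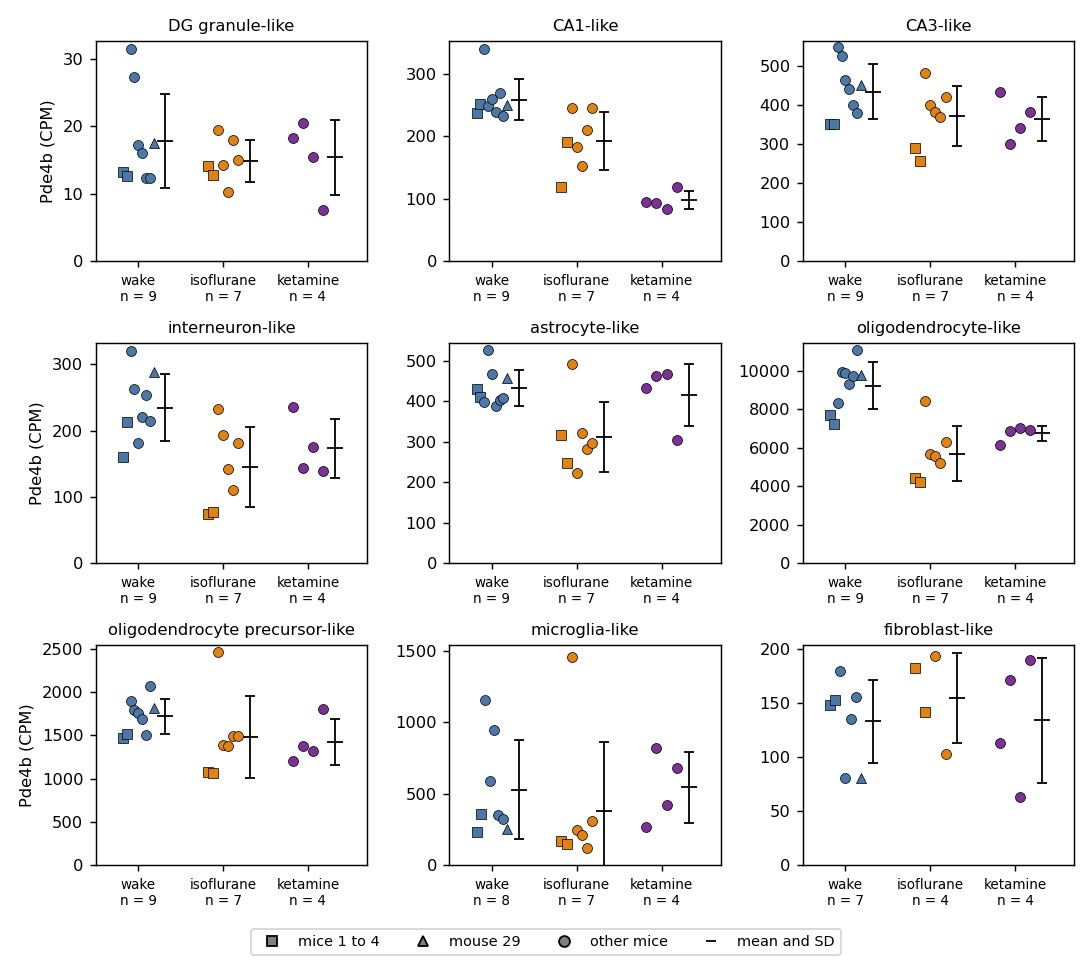
Pde4b level (CPM) in each mouse by treatment in the tested cell classes, a panel for each class with its own axis, points for mice (squares for mice 1 to 4, a triangle for mouse 29) and bars for the mean with SD, of which the one for isoflurane in microglia-like nuclei is cut at 0. Isoflurane mice have a lower mean in every class but fibroblast-like nuclei, and the fall was called in oligodendrocyte-like, CA1-like and interneuron-like nuclei. Ketamine mice lie below every awake mouse in CA1-like nuclei, whose values chose the members, and in oligodendrocyte-like nuclei, where the difference was not called.

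Pde10a in interneuron-like nuclei was the member and class with the lowest adjusted p. It ranged from 686 to 1201 CPM with a median of 956 CPM in awake mice, and from 411 to 606 CPM with a median of 488 CPM under isoflurane, without overlap. The level fell by 0.92 on the log2 scale (SE 0.14, adjusted p = 0.00133, edgeR), was lower in 4 of 4 runs, and was called with any mouse left out. The lower interneuron marker sum given above applies here as well, and its part was not tested. After ketamine the same nuclei had 917, 587, 843 and 543 CPM in mice 25 to 28, with a log2 fold change of -0.38 (adjusted p = 0.170, edgeR).

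Pde7b in DG granule-like nuclei ranged from 270.3 to 478 CPM with a median of 354 CPM in awake mice, and from 181 to 353 CPM with a median of 234 CPM under isoflurane. It fell by 0.61 on the log2 scale (SE 0.15, adjusted p = 0.0323, edgeR), with -0.71 to -0.53 when 1 mouse was left out and -0.62 to -0.44 over the other settings. The call was lost with the marker gate (adjusted p = 0.267), without mice 1 to 4 (adjusted p = 0.219) and without mouse 2, 3, 4, 10, 15, 18 or 20 (adjusted p up to 0.110, edgeR). Pde2a in oligodendrocyte-like nuclei rose by 1.09 on the log2 scale (SE 0.32, adjusted p = 0.0485, edgeR), but rested on 79 UMIs in 7 isoflurane mice and 40 UMIs in 9 awake mice. That call was lost with any mouse but 1 and 16 left out (adjusted p up to 0.162, edgeR), and with doublets kept the difference was 0.01. It was also lost by DESeq2 (adjusted p = 0.0739), with no filter on low counts, with finer clusters and with the marker gate, where the difference was 0.61.

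Ketamine outside CA1 was compared with wakefulness in the same fit. Of 80 pairs of a member and a class, 73 were tested and 8 called by edgeR, 5 higher and 3 lower, and 9 were called by DESeq2. The members' share was 11.0% beside 6.87% over all genes and classes (5870 of 85458, of which 3216 were higher and 2654 lower). These classes come from the same libraries as the CA1-like values that chose the members. This share is no test of the members as a set. The share of all genes called was 12.4% in DG granule-like, 5.25% in CA3-like, 4.14% in interneuron-like, 8.09% in astrocyte-like, 3.87% in oligodendrocyte-like, 1.14% in oligodendrocyte precursor-like, 0.146% in microglia-like and 17.7% in fibroblast-like nuclei. All 8 had the same direction against mouse 29 alone, and in 6 every ketamine mouse was on that side of mouse 29. Mouse 29 is itself among the awake mice that gave these calls, so the counts are no separate test of them. With the runs of mouse numbers as a block, none of the 8 was called. Mouse 29 is the only awake mouse in the run of the ketamine mice, and the share of all genes called under that block is not given. The loss is therefore not read as a result about the members. The difference under that block was -0.80 for Pde7b and 0.36 for Pde4d in DG granule-like, 0.51 for Pde4d and -0.51 for Pde1c in CA3-like, 0.24 for Pde2a in interneuron-like, 3.31 for Pde10a in astrocyte-like, 0.44 for Pde8b in oligodendrocyte-like and -0.67 for Pde1a in fibroblast-like nuclei.

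Pde4b itself was not called outside CA1 after ketamine. In oligodendrocyte-like nuclei it was 6860 CPM (mouse 25), 6147 CPM (mouse 26), 7037 CPM and 6943 CPM (mice 27 and 28), all below the awake mice, with a log2 fold change of -0.42 (adjusted p = 0.112, edgeR). The DG granule markers other than Dock10 summed in these nuclei to 453 to 512 CPM after ketamine, also below the awake range given above, and their part was not tested. In the remaining 7 classes its log2 fold change lay between -0.48 (interneuron-like, adjusted p = 0.243, edgeR) and 0.02 (microglia-like). The share of all genes without overlap between ketamine and awake mice was counted in CA1-like nuclei alone. No test compared CA1 with the other classes.

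Pde10a in astrocyte-like nuclei had the strongest call after ketamine. Awake mice ranged from 40.3 to 349 CPM with a median of 80.9 CPM, the 3 highest being mice 1, 2 and 10. After ketamine it was 592, 798, 679 and 546 CPM in mice 25 to 28, above every awake mouse, and mouse 29 of the same run had 50.8 CPM. The level rose by 2.19 on the log2 scale (SE 0.45, adjusted p = 0.00543, edgeR) and was called with any mouse left out. With doublets kept the rise was 1.22 (adjusted p = 0.00745, edgeR). Isoflurane mice ranged from 102 to 468 CPM and overlapped the awake mice (0.94, adjusted p = 0.171, edgeR). Within the runs of mouse numbers the log2 ratio of isoflurane to awake mice was -0.30 in mice 1 to 4 and 1.64, 2.05 and 1.82 in the other 3 runs.

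Markers of neurons were counted in the astrocyte-like sums as well. The 6 CA1 markers summed to 63.3 to 85.4 CPM after ketamine and 65.3 to 139 CPM in awake mice. The 12 interneuron markers, of which Dlx1 was at 0 after ketamine, summed to 43.2 to 66.9 CPM and 30.2 to 260 CPM. Of the 6 DG granule markers, Glis3 had a median of 575 CPM in awake astrocyte-like nuclei, and the other 5 summed to 115 to 142 CPM after ketamine and 169 to 294 CPM in awake mice, without overlap. The 8 astrocyte markers summed to 6539 to 8367 CPM after ketamine and 6042 to 7801 CPM in awake mice. The part of these markers in the Pde10a level was not tested.

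Pde4d, which binds to many scaffold proteins, rose in both DG granule-like and CA3-like nuclei. In DG granule-like nuclei it was 599, 497, 561 and 407 CPM in mice 25 to 28 and 261 to 381 CPM, with a median of 326 CPM, in awake mice. The groups did not overlap, and the rise was 0.64 on the log2 scale (SE 0.17, adjusted p = 0.0215, edgeR), lost without mouse 2, 25 or 27 (adjusted p up to 0.174). In CA3-like nuclei it was 5044, 4338, 4435 and 3318 CPM in mice 25 to 28 and 2148 to 3611 CPM, with a median of 2937 CPM, in awake mice. Mouse 28 lay within the awake range, and the rise was 0.57 (SE 0.15, adjusted p = 0.0349, edgeR), lost without mouse 2, 10, 13, 25, 26, 27 or 28 (adjusted p up to 0.254). Both Pde4d calls were lost with the marker gate, with rises of 0.61 (adjusted p = 0.113) and 0.42 (adjusted p = 0.0947, edgeR).

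Pde7b in DG granule-like nuclei was 229.9, 194, 209.6 and 265 CPM in mice 25 to 28, below every awake mouse. It fell by 0.73 on the log2 scale (SE 0.18, adjusted p = 0.0142, edgeR), beside the 0.61 under isoflurane, for which the same awake mice served. The summed level of the 6 DG granule markers was also lower, at 2632 to 3216 CPM after ketamine and 2067 to 3407 CPM under isoflurane against 3092 to 3943 CPM in awake mice, and its part was not tested. The ketamine call was lost with the marker gate (adjusted p = 0.0897) and without mouse 26 or 27 (adjusted p up to 0.115, edgeR).

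The remaining 4 calls were in 4 classes. Pde2a in interneuron-like nuclei was 107, 103, 138 and 161 CPM in mice 25 to 28 against 70.8 to 112 CPM in awake mice (0.61, SE 0.14, adjusted p = 0.0183, edgeR), only 2 of the 4 were above mouse 29, and the call was lost without any of the 4 (adjusted p up to 0.0834) and with the marker gate, where the difference was 0.43 (adjusted p = 0.340). Pde8b in oligodendrocyte-like nuclei rose by 1.24 (SE 0.34, adjusted p = 0.0453, edgeR) on 93 UMIs in 4 ketamine mice, and was lost with any of 13 mice left out, among them all 4 (adjusted p up to 0.241). That difference was 0.51 with doublets kept (adjusted p = 0.319) and 0.19 with the marker gate (adjusted p = 0.905), and the call was also lost with finer clusters (adjusted p = 0.0505) and without mice 1 to 4 (adjusted p = 0.0725, edgeR). Pde1c in CA3-like nuclei fell by 1.93 (SE 0.54, adjusted p = 0.0423, edgeR) on 14 UMIs in 4 ketamine mice, with 0 in mouse 28, and was lost with any of 10 mice left out, among them all 4 (log2 fold change from -4.63, without mouse 27, to -1.43, adjusted p up to 0.155). That difference was -0.79 with doublets kept (adjusted p = 0.193), -1.19 with the marker gate (adjusted p = 0.283) and -4.39 with finer clusters (adjusted p = 0.0245, edgeR), and the call was lost without mice 1 to 4 at -1.98 (adjusted p = 0.0669, edgeR). Pde1a in fibroblast-like nuclei fell by 1.32 (SE 0.35, adjusted p = 0.0271, edgeR), from between 462 and 1050.1 CPM in awake mice to between 234 and 420.5 CPM, and was lost without mouse 2, 10, 11, 25, 26, 27 or 28 (log2 fold change from -1.42 to -1.18, adjusted p up to 0.131). The call was also lost without mice 1 to 4 at -1.14 (adjusted p = 0.227), with no filter on low counts at -1.21 (adjusted p = 0.0816) and with the marker gate at -1.38 (adjusted p = 0.0834, edgeR). In these nuclei the 7 fibroblast markers summed to 5572 to 16134 CPM after ketamine and 2618 to 6066 CPM in awake mice, and their part was not tested.

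**Figure D4:**
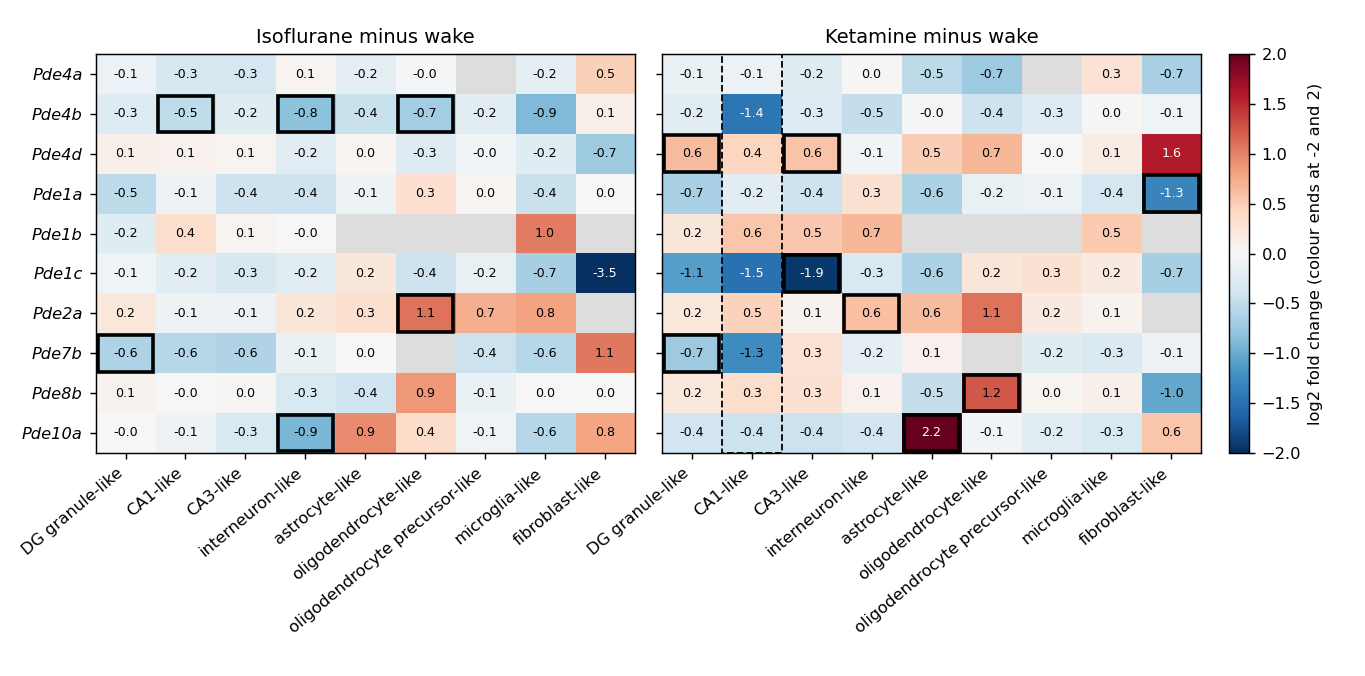
Log2 fold change of each member (rows) in each cell class (columns) under isoflurane and under ketamine against awake mice, on a colour scale centred on 0, with black frames around pairs called by edgeR at an adjusted p of 0.05 and grey for pairs not tested. The ketamine column of CA1, with a dashed frame, carries no call because its values chose the members. Pde4b is framed in 3 classes under isoflurane, and Pde4d in 2 classes after ketamine.

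**Figure D5:**
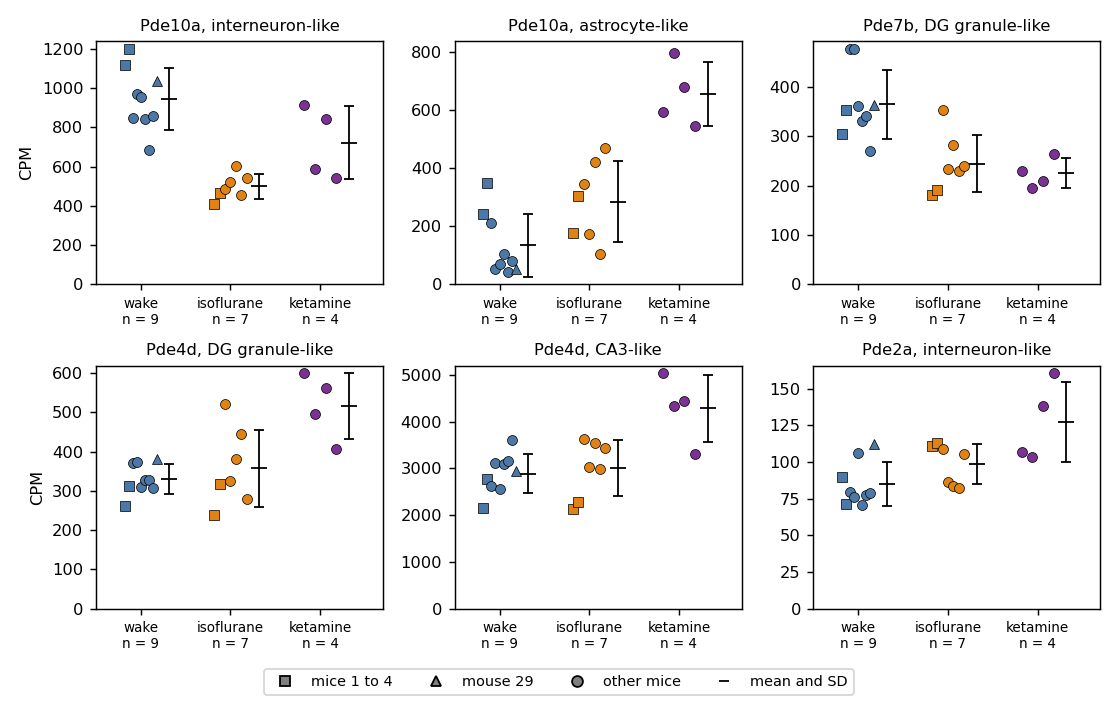
Level (CPM) in each mouse of Pde10a, Pde7b, Pde4d and Pde2a in 6 pairs of a member and a class with a call, by treatment, with points for mice (squares for mice 1 to 4, a triangle for mouse 29) and bars for the mean with SD. Pde10a is lower under isoflurane in interneuron-like nuclei, at 411 to 606 CPM, and higher after ketamine in astrocyte-like nuclei, at 546 to 798 CPM.

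The genotypes were compared across the 3 treatments. None of 83 pairs was called by edgeR, nor any by DESeq2, and 2 had an unadjusted p under 0.05: Pde2a in astrocyte-like nuclei (log2 fold change 0.56, APP/PS1 over WT) and Pde1c in microglia-like nuclei (1.21). Of all genes, 380 of 12601 in astrocyte-like and 192 of 7533 in microglia-like nuclei were under that p. The Pde1c pair rested on 29 UMIs in WT and 59 UMIs in APP/PS1 mice, and nothing is read from these 2 pairs. Of the 83 pairs, 10 were in CA1-like nuclei and included the ketamine mice whose values chose the members, and nothing is read from those 10. Over all genes 0% were called in each of the 9 classes. The response to isoflurane was not found to differ by genotype either, with 0 of 83 pairs called by edgeR or by DESeq2, 0% of all genes in each class, and 1 pair at an unadjusted p under 0.05 (Pde1c in fibroblast-like nuclei). That pair had 0 UMIs in the 2 WT Isofluran mice, and 142 of 7359 genes of the class were under that p. For Pde4b in CA1-like nuclei, isoflurane gave -0.61 in WT and -0.41 in APP/PS1 mice, and the difference was 0.20 (SE 0.24, adjusted p = 0.913, edgeR). In oligodendrocyte-like nuclei the values were -0.93 and -0.45, a difference of 0.48 (SE 0.25, adjusted p = 0.991, edgeR). As a check of the genotype labels, Prnp, the gene whose promoter drives the transgenes, was counted in CA1-like nuclei at 42.5 to 186 CPM in mice labelled WT and at 63.7 to 468 CPM in those labelled APP/PS1. The medians were 74.7 CPM and 185.5 CPM, and in 5 of the 9 APP/PS1 mice Prnp was no higher than in the highest WT mouse. Prnp thus does not settle the label of each mouse. The genotype comparisons rest on the labels as given, whose group sizes differ from those in the series text.

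The other genes of the pathway were taken from a list of 51 cyclases, kinases, anchors, Epac and CREB genes and further phosphodiesterases. Under isoflurane 17 of 361 tested pairs of a gene and a class were called (4.71%), 10 higher and 7 lower. After ketamine, outside CA1, 16 of 318 were called (5.03%), 10 higher and 6 lower, and between genotypes none of 361. These shares stand beside 3.36% and 6.87% of all genes. Calls of this list are from the edgeR fit described above, and results with other settings or mice left out are not given for them. None of the members' calls after ketamine held with the runs of mouse numbers as a block, where mouse 29 was the only awake mouse in the ketamine run.

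Pde8a, a cAMP-specific phosphodiesterase and the closest relative of Pde8b, was called higher in more classes than any gene of that list. Under isoflurane it rose in oligodendrocyte-like nuclei from 667 ± 146 to 1147 ± 86.2 CPM (log2 fold change 0.82), and in DG granule-like (1.07) and CA1-like nuclei (0.92) from means under 10 CPM. After ketamine it rose in astrocyte-like (1.75), DG granule-like (1.73), interneuron-like (1.44) and oligodendrocyte precursor-like nuclei (1.28). Pde8b, in contrast, was called in 1 pair. Pde7a, the relative of Pde7b, fell in DG granule-like nuclei under isoflurane by 0.46, from 104 ± 11.2 to 76.0 ± 13.2 CPM, as Pde7b did. Pde6b rose in DG granule-like nuclei after ketamine by 1.51, from 0.873 to 2.55 CPM.

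Of the adenylyl cyclases, which make cAMP, 3 of 57 pairs were called under isoflurane (5.26%) and 1 of 50 after ketamine (2.0%), all in Adcy8 and Adcy2. Adcy8, a calcium-stimulated cyclase, fell in DG granule-like nuclei from 48.9 ± 7.76 to 17.2 ± 5.31 CPM under isoflurane (-1.55) and to 26.5 ± 5.54 CPM after ketamine (-0.87). It also fell in astrocyte-like nuclei under isoflurane (-0.87), as did Adcy2 (-0.77). Among the guanylyl cyclases, Gucy1a1 rose after ketamine in CA3-like (1.61) and fibroblast-like nuclei (2.38), Gucy1b1 rose in CA3-like nuclei (0.54), and the receptor cyclase Npr2 fell there (-1.06).

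Of the genes that read or place cAMP signals, Rapgef3, encoding Epac1, rose under isoflurane in astrocyte-like (0.53), oligodendrocyte-like (1.47) and oligodendrocyte precursor-like nuclei (0.83), and Rapgef4, encoding Epac2, fell in interneuron-like nuclei (-0.49). The anchor gene Akap12 rose under isoflurane in astrocyte-like (2.22) and oligodendrocyte-like nuclei (1.28) and after ketamine in DG granule-like nuclei (0.96). Akap6 rose under isoflurane in astrocyte-like (0.52) and oligodendrocyte-like nuclei (0.63) and after ketamine in astrocyte-like nuclei (0.55), while Akap7 fell in fibroblast-like nuclei after ketamine (-1.78). In DG granule-like nuclei the protein kinase A inhibitor gene Pkib fell under isoflurane (-0.68) and the regulatory subunit gene Prkar1b after ketamine (-0.68). In the CREB family 1 of 58 pairs was called under isoflurane (1.72%) and 2 of 51 after ketamine (3.92%), namely the coactivator gene Crtc3 in CA1-like nuclei under isoflurane (-0.56), Creb1 in CA3-like nuclei (-0.92) and Crtc1 in oligodendrocyte-like nuclei after ketamine (-1.18), each of them lower.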

How the data were processed

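Nuclei were prepared from the hippocampus of 20 mice, and the authors deposited 1 filtered matrix of UMI counts per mouse, made with Cell Ranger 5.0.0 on its mm10 reference with introns counted. The methods name CellBender for ambient RNA correction and removal of empty droplets, but the headers of the deposited files name Cell Ranger alone and do not show whether these counts are the corrected ones, and the labels and the methods name different kit versions. The members and gene lists here were chosen with earlier results of these data known. Barcodes shared by 2 libraries were 0.0975% to 0.407% of the smaller one. Nuclei were clustered into 45 clusters (Python 3.11.15, scikit-learn 1.9.0, leidenalg 0.10.2), 10840 nuclei were marked as doublets and left out, and clusters were named from fixed marker lists. Raw counts were summed per mouse and class where a mouse had at least 50 nuclei, genes were filtered by filterByExpr, and edgeR 4.0.16 (R 4.3.3, TMM, quasi-likelihood test, 6 groups) compared treatments averaged over genotypes. DESeq2 1.42.0 was an alternative. The calling was also run on simulated data with 200 changed genes, where it missed part of the changes and made some false calls. No call here rests on that run. Genes named outside the members are the 5 most correlated with Pde4b in CA1-like nuclei and the called genes of the pathway list. The methods give batches of 4 mice, which the labels do not assign, so the runs of mouse numbers stood in for them as a block in an alternative. Every mouse is 1 library, so p-values set a difference against the spread between mice within the 6 groups of this series. The main fit held no term for the runs of mouse numbers.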

Additional observations from a re-analysis of the deposited data

Results flagged for a closer look

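Of 43 groups of 4 to 10 mice examined, 2 held a mouse far from the others, and chance alone gives about 1 in 20. Pde10a in astrocyte-like nuclei of WT Wake mouse 1 was 239.6 CPM (390 UMIs) against 50.8 to 104 CPM in the 5 other mice of its group. Pde4a in CA1-like nuclei of WT Wake mouse 14 was 167 CPM (417 UMIs) against 109 to 129 CPM in the other mice of its group.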

How the results depend on the processing

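The 6 isoflurane calls became 3 when nuclei were classed by a marker gate in place of clusters, 2 in WT mice alone and 0 in APP/PS1 mice alone, and 2 to 7 with 1 mouse left out, the fewest without mouse 10 and 3 without mouse 3, 15, 18 or 20. The 8 ketamine calls outside CA1 became 1 with the gate and 0 with the runs of mouse numbers as a block, and 1 to 11 with 1 mouse left out: 1 without mouse 27, 2 without mouse 25 or 26, 3 without mouse 2 or 28, and 5 without mouse 10, 13 or 17. For Pde4b in CA1-like nuclei after ketamine, the log2 fold change was -0.94 with the gate and -1.58 to -1.34 with 1 mouse left out. The level of Pde4b in oligodendrocyte-like nuclei of awake mice, 9231 CPM, was 5904 CPM with doublets kept and 8999.7 to 9483 CPM with 1 mouse left out. None of the 14 called pairs changed direction in an alternative run. In CA1-like nuclei after ketamine, where no member was tested, the sign changed with the runs as a block for Pde4a (0.15), Pde1b (-0.15) and Pde1c (0.19), and Pde4a was at 0.0013 in WT mice alone, while Pde4b was -1.52 with that block. The genotype comparison gave 0 calls in each alternative. Of the called pairs, 1 was called under every other setting and 3 with each mouse left out in turn. Only Pde7b changed its highest class, to fibroblast-like nuclei with the gate. The cause of these changes was not tested. The marker gate named fewer nuclei in each tested class than the clusters did. Shares of all genes called under the other settings are not given, so the counts of calls are not read as results about the members. Replicate numbers pair no mice, since each mouse has a number of its own. The runs of mouse numbers, which the labels do not name as batches, served as a block, and isoflurane then gave 7 calls. Depth was least for the rarest members, with 14 UMIs for Pde1c in CA3-like nuclei after ketamine. By library, the 2 WT Ketamine mice had the fewest UMIs, 9243992 and 10385732, against at least 11432646 in every other mouse. The comparison with mouse 29 alone was added after the data had been seen.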
